A study of Mus musculus with 43 samples.

Results

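Of 23256 rows in a table of normalised read counts from mouse back skin, 50 were close to silent in one strain background and clearly read in the other. Rows were chosen by these measured strain means: a row was taken when its mean was below 1 over the 14 WT libraries and 50 or more over the 29 NZM and iNZM libraries, or the reverse, and rows named Skint or Ifi202b were left out, which removed 3 rows. The first direction held 45 rows and the second held 5, among them the interferon-inducible gene Ifi44l. The strain values are therefore given as a description, with no test. The skin came from female mice aged 10 to 13 weeks. NZM stands for NZM2328, a lupus-prone line. What iNZM and WT are is not spelled out in the labels; in lupus research iNZM is NZM2328 without Ifnar1, and the WT strain is unknown here. Skin received no UVB, acute UVB (1 exposure of 300 mJ/cm2) or chronic UVB (5 daily exposures of 100 mJ/cm2), and was taken 24 hours after the last exposure. Each group held 5 libraries, except for 4 each in unexposed WT and unexposed iNZM. The labels do not say that each library came from a separate animal, so p-values measure the spread between these libraries. WT and the NZM lines differ by strain as a whole, so the effect of a single locus and of the rest of the background cannot be told apart. Silent here means few or no counted reads. Reads of all strains were counted on build mm10, and the part of strain differences in sequence or gene copies in low counts was not tested.

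Depth ran from 18493566 to 37756660 recovered reads per library, with a median of 24442363. All 5 keratinocyte markers were in the table, and their summed level was between 106000 and 2158000 in every library, as skin should have. The 5 skeletal muscle markers were also high in all 3 strains, with sums of 66180 to 1319000. Ifnar1, the gene of one of the type I interferon receptor chains, differed between iNZM and NZM by -1.10 ± 0.14 (SE) on the log2 scale in unexposed skin, by -1.04 ± 0.13 with acute and by -1.13 ± 0.13 with chronic exposure (limma adjusted p = 0.000276, 0.000142 and 5.54e-05). Hair follicle markers split the libraries: the mean log2(value + 1) of 7 markers was 13.90 to 16.52 in 9 NZM and iNZM libraries and at most 10.44 in the other 34 libraries. The 9 were sample 5 of NZM acute UVB, 6 and 49 of iNZM acute UVB, 17, 55 and 56 of NZM chronic UVB, and 22, 24 and 25 of iNZM chronic UVB. That is 3 of 10 acute and 6 of 10 chronic libraries, and none of the 9 unexposed libraries of these strains.

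Several kinds of gene can meet such a rule. Inbred mouse strains carry deletions, duplications and inactivated copies in gene families that arose by tandem duplication, such as the Nlrp1 inflammasome sensors, the apolipoprotein L genes and the lipases. Epidermal keratins are made in skin at all times. Hair keratins, inner root sheath keratins and keratin-associated proteins, in contrast, are made mainly while a hair follicle is growing, so their RNA in a biopsy follows the phase of the hair cycle. Ifi44l and its neighbour Ifi44 belong to the genes switched on by interferons, and Ifi44l is known as a member of the interferon signature measured in lupus.

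The rows fell into kinds that were set after their values were seen. In the first, 10 of the 45 rows silent in WT had reads in all 29 NZM and iNZM libraries; these are called always-read rows here, which says nothing of how even their levels were. In the second, 31 rows were higher in each of the 9 hair-high libraries than in any of the other 20 NZM and iNZM libraries; these are called hair-linked. The remaining 4 were Spink7, Apol7c, RP23-404A6.8 and RP23-192A6.2. The hair-linked rows were low outside the 9 libraries, which is part of how they were grouped: 29 of the 31 had a mean below 1 in the other 20 NZM and iNZM libraries, and 18 had no read in any of the 9 unexposed ones. They are therefore not rows that were read throughout the NZM and iNZM skin, and no WT library had hair marker levels as high as the 9.

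**Figure D1:**
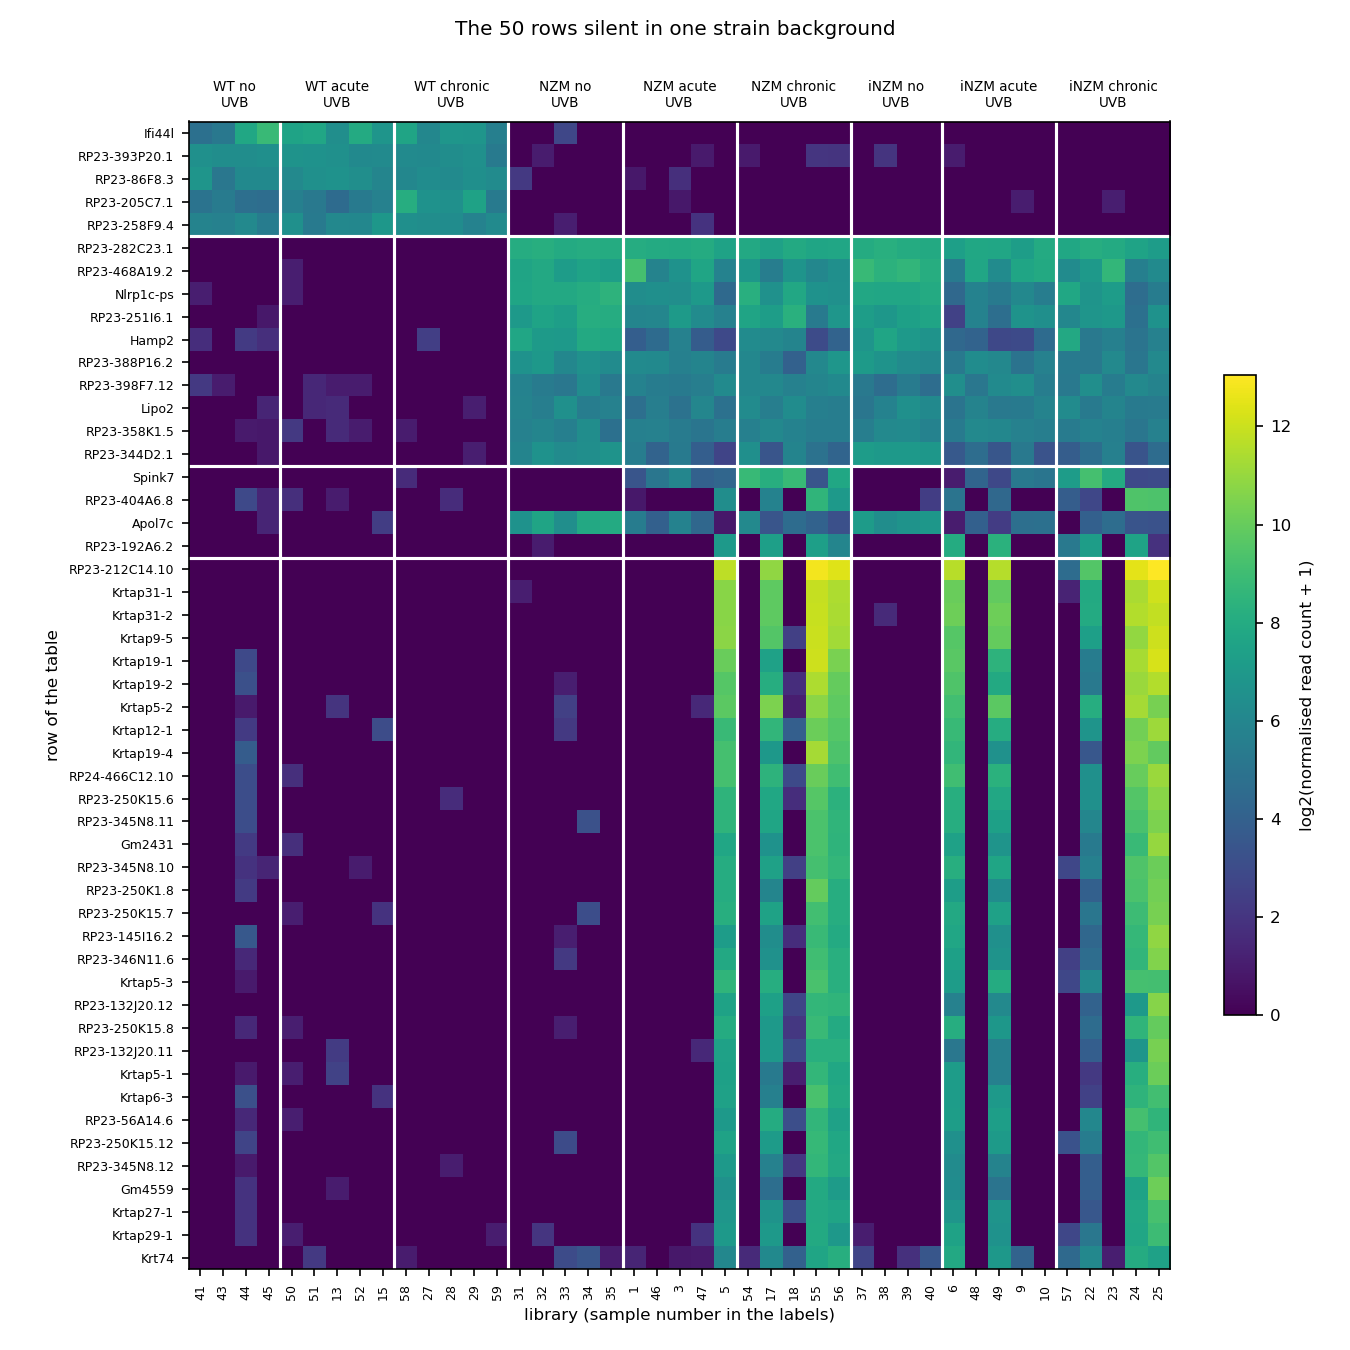
Each line is 1 of the 50 rows and each column 1 of the 43 libraries, with white lines between groups and between kinds of row; colour gives log2(normalised read count + 1). From top to bottom are the 5 rows silent in NZM and iNZM, the 10 always-read rows, the 4 remaining rows and the 31 hair-linked rows, which are bright in 9 columns.

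By class, 28 of the 50 rows (56%) carried the name of a bacterial artificial chromosome clone (RP23 or RP24) with a model number, against 24.6% of all rows in the table. Such rows were 15 of the 31 hair-linked, 7 of the 10 always-read, 2 of the 4 remaining, and 4 of the 5 rows silent in NZM and iNZM. They were not matched to a gene symbol or position in the annotations used here, and their products are not described. The 22 rows with a symbol were placed with GENCODE vM21 on GRCm38. Among them 14 were keratin or keratin-associated genes, 2 were predicted models (Gm2431 and Gm4559), and 1, Nlrp1c-ps, was annotated as a pseudogene. Krt74 was counted with the keratins but is also annotated as a pseudogene. Gm2431 is protein-coding in GENCODE and a transcribed pseudogene in RefSeq. The other symbols were Ifi44l, Hamp2, Lipo2, Apol7c and Spink7.

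Ifi44l (chr3:151758737-151762892, minus strand) had the highest mean of the 5 rows silent in NZM and iNZM. Its normalised read counts were 26.69, 36.60, 216.1 and 460.0 in unexposed WT libraries. They were 86.37, 110.2, 187.0, 211.6 and 251.6 in WT after acute UVB, and 49.24, 64.74, 109.3, 114.4 and 195.6 after chronic UVB. The unexposed libraries spread more widely than the exposed ones, and the 3 groups overlap. In NZM and iNZM it was 0 in 28 of 29 libraries; NZM no UVB sample 33 held 5 reads, a value of 5.78. Within WT, neither acute UVB (0.64 ± 0.70 on the log2 scale, limma adjusted p = 0.549) nor chronic UVB (-0.07 ± 0.70, adjusted p = 0.944) passed the test.

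The neighbour Ifi44, 8.8 kb away on the same strand and itself interferon-inducible, was read in NZM. It was 476 ± 272 (SD, n = 14) in WT, 96.7 ± 120 (n = 15) in NZM and 1.04 ± 1.66 (n = 14) in iNZM. The NZM libraries spanned 19.7 to 454 and overlapped WT, which spanned 84.7 to 1150, while the highest iNZM library was at 4.95. NZM was lower than WT by -2.73 ± 0.42 on the log2 scale (adjusted p = 3.33e-06; 21.8% of all 19170 genes tested passed in this comparison), and NZM with iNZM by -5.31 ± 0.37 (adjusted p = 7.43e-15, where 32.8% passed). The iNZM minus NZM differences were -4.62 ± 0.80 in unexposed skin, -5.42 ± 0.75 with acute and -5.45 ± 0.75 with chronic exposure (adjusted p = 0.0195, 0.000509 and 0.0005). Every NZM library had reads of Ifi44, and 14 of 15 had none of Ifi44l, and the cause of this was not tested. The iNZM minus NZM test in unexposed skin was lost in 7 of 36 alternatives. These were a pseudocount of 8 (limma adjusted p = 0.115), edgeR (0.109) and leaving out NZM sample 34 (0.0917) or 35 (0.0669), or iNZM sample 37 (0.0603), 38 (0.0561) or 40 (0.169). Ptgfr, a prostaglandin receptor gene 33.6 kb to the other side, was also lower in NZM than in WT (-1.22 ± 0.21, adjusted p = 3.57e-05).

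**Figure D2:**
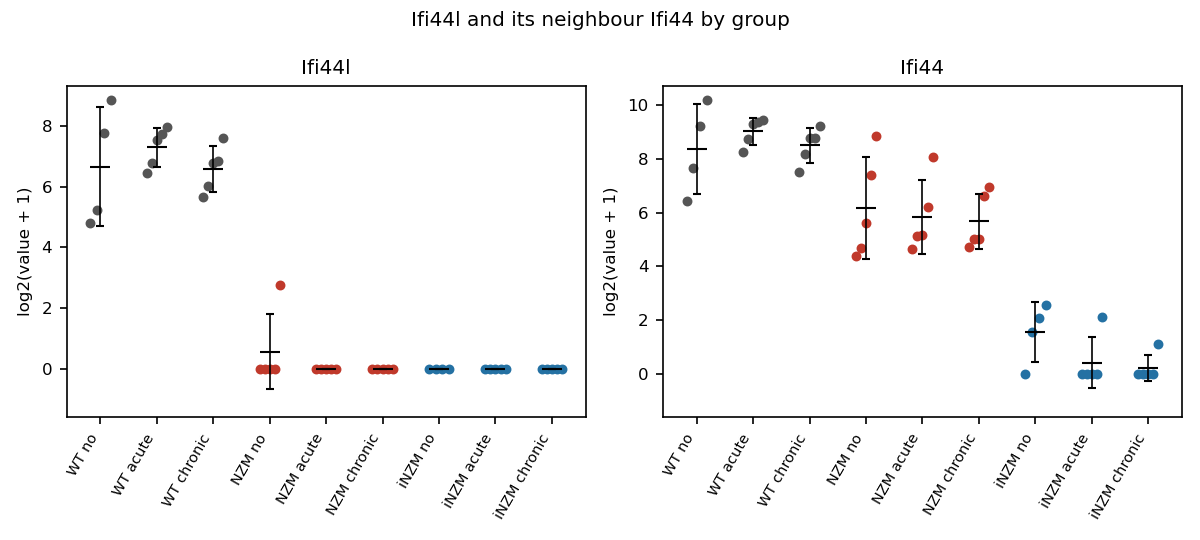
The vertical axis gives log2(normalised read count + 1) of Ifi44l (left) and Ifi44 (right); points are libraries, black lines the group mean and SD, and groups are ordered WT, NZM and iNZM, each with no, acute and chronic UVB. Ifi44l lies at 0 in all but 1 NZM or iNZM library, while Ifi44 is read in all NZM libraries and is near 0 in iNZM.

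A list of 40 interferon-stimulated genes, with Ifi44 among them, gives the setting of this row. All 40 passed the filter on low values. In NZM against WT, 10 of the 40 were lower and none higher, where 10.3% of all genes were lower; the list's median was -0.59 and that of all genes 0.01. In iNZM against NZM, 2 of 40 were lower without UVB, 14 after acute and 14 after chronic UVB, and none was higher, where 0.027%, 0.13% and 0.222% of all genes were lower and 0.0108%, 0.0108% and 0.0054% higher. Oasl2, an oligoadenylate synthetase-like gene, differed by -3.06 ± 0.58, -3.72 ± 0.55 and -4.26 ± 0.55 in these comparisons (adjusted p = 0.0425, 0.000856 and 0.000204). Rsad2, which encodes the antiviral protein viperin, differed by -3.93 ± 0.55 after acute UVB (adjusted p = 0.000509), and Oas1a, an RNA-sensing oligoadenylate synthetase, by -4.42 ± 0.67 after chronic UVB (adjusted p = 0.00119). Over the 14 WT libraries, log2 Ifi44l followed log2 Ifi44 (Pearson r = 0.91) and the mean of the other list genes (r = 0.94); these are descriptions over libraries that share depth and tissue makeup.

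The 250 bases before the RefSeq start of Ifi44l are shown because this is the one named gene silent in NZM and iNZM. They are from the C57BL/6J reference; NZM sequence was not analysed here. The core of the interferon response element, spelled GAAA, any 2 bases and GAAA again, was searched on both strands. It is in the same window of 16 of 34 list genes with a promoter (47.1%) and of 2.98% of all 32851 promoters. No match was found in this window of Ifi44l, nor in that of Ifi44, and the window is therefore printed without capitals. Only exact matches were searched, so sites that differ from this spelling are not covered in either window.
Ifi44l (chr3:151762892-151763141, minus strand, GRCm38.p6): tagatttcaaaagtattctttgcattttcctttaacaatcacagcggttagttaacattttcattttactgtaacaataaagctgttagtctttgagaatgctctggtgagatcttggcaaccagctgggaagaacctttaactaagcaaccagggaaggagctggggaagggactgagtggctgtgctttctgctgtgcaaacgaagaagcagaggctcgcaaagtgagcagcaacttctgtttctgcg

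The other rows silent in NZM and iNZM were RP23-393P20.1, RP23-86F8.3, RP23-205C7.1 and RP23-258F9.4. RP23-393P20.1 ranged from 40.68 to 102.8 over the 14 WT libraries, RP23-86F8.3 from 35.61 to 110.3, and RP23-258F9.4 from 40.76 to 118.6. On the silent side, reads were found in 7, 3 and 2 of the 29 libraries, with highest values of 3.08, 3.50 and 2.74. RP23-205C7.1 was the 1 row of these 5 that was called after chronic UVB in WT. Its mean was 31.0 in unexposed and 89.9 in exposed WT libraries, so it met the limit of 50 through exposed skin alone, and its difference is given as a description. It was 24.63, 26.55, 30.18 and 42.53 without UVB, and 40.68, 93.67, 100.1, 181.0 and 280.4 after chronic UVB. All but the lowest of the chronic libraries lie above all unexposed ones. The log2 difference was 1.88 ± 0.45 (1 of 5 rows called, where 20.2% of all 17279 genes were higher, 20.3% lower and 40.5% either), and after acute UVB it was 0.35 ± 0.45. After acute UVB in WT none of the 5 rows passed by limma, where 24.8% of all genes did, and 0 had an unadjusted p below 0.05. By edgeR none of the 5 passed either.

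The always-read rows were led by RP23-282C23.1. It had a mean of 233 ± 40.4 (SD, n = 29) over the NZM and iNZM libraries, between 145 and 301, and not 1 read in 14 WT libraries. Against a floor of 3 reads over the WT libraries, its mean was at least 1010-fold higher, which covers counting error only. RP23-388P16.2 was also at 0 in all WT libraries, against 67.7 ± 28.8, at least 294-fold higher. The other always-read rows had 1 to 12 reads over the 14 WT libraries. Their means in NZM and iNZM were 181 for RP23-468A19.2, 143 for Nlrp1c-ps, 123 for RP23-251I6.1, 79.3 for Hamp2, 54.2 for RP23-398F7.12, 52.3 for Lipo2, 51.8 for RP23-358K1.5 and 51.5 for RP23-344D2.1. The coefficients of variation of the 10 rows ran from 0.174 for RP23-282C23.1 to 0.975 for Hamp2, against 1.63 to 3.21 for the hair-linked rows.

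Nlrp1c-ps (chr11:71242430-71285232) is a transcribed pseudogene of the Nlrp1 family, whose intact members sense pathogens and start the inflammasome. The next tested gene, Nlrp1b, lies 11.7 kb away and went the other way: it was 52.0 ± 35.8 (SD, n = 14) in WT, 6.06 ± 6.30 (n = 15) in NZM and 3.13 ± 3.81 (n = 14) in iNZM. The log2 difference of NZM with iNZM from WT was -3.50 ± 0.39 (adjusted p = 3.14e-09). Nlrp1a, a little further on the same side, was higher in NZM and iNZM, with a mean of 28.6 against 6.31 in WT (2.32 ± 0.40, adjusted p = 1.87e-05). An aligned stretch of 892 bases of a Nlrp1c-ps transcript was 90% identical to Nlrp1a. Only this closest match was kept, so identity with Nlrp1b is not given. How reads were assigned between these copies was not tested, so the split between the 3 genes is uncertain.

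Lipo2 (chr19:33719670-33751359), a gene of a tandem lipase family, showed the same arrangement. It was 52.3 ± 18.4 (n = 29) in NZM and iNZM and 0.457 in WT, while its neighbour Lipo1, 24.1 kb away, was 84.3 ± 29.7 in NZM and iNZM and 248 ± 43.6 (n = 14) in WT. The libraries of Lipo1 did not overlap: WT stayed at 195 or above, NZM at 151 or below and iNZM at 134 or below. The log2 difference was -1.62 ± 0.14 (adjusted p = 2.57e-12). A stretch of 408 bases of Lipo2 is 98.3% identical to Lipo3, which has no row in the table, so the source of these reads within the family is uncertain.

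Hamp2 (chr7:30922372-30924681) is a second copy of the gene for hepcidin, the hormone that lowers iron uptake. A Hamp2 transcript of 437 bases is 93% identical to Hamp over 417 bases, 95.4% of its length. Hamp had a mean of 3.05 in NZM and iNZM and 0.373 in WT. In unexposed WT libraries Hamp2 itself was 0, 2.321, 2.384 and 3.662. Among exposed WT libraries it had reads only in chronic UVB sample 27, at 4.414. Of the tested neighbours of Hamp2, Usf2 was lower in NZM and iNZM by -0.36 ± 0.06 (adjusted p = 2.63e-05) and Mag did not pass (-0.55 ± 0.30, adjusted p = 0.157).

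Taking the nearest tested gene with a position on each side of the 22 placed rows within 1 Mb gave 28 distinct neighbours that were no members. Rows without a position could not be counted as neighbours. Between NZM with iNZM and WT, 9 of the 28 passed the test, where 32.8% of all genes did, a share near the background. By kind they were 4 of 6 neighbours of always-read rows, 0 of 16 of hair-linked rows, 3 of 4 of Apol7c and Spink7, and both neighbours of Ifi44l. Within 1 Mb, 5 of 11 tested genes passed around Ifi44l, 12 of 38 around Nlrp1c-ps, 12 of 22 around Lipo2, 27 of 56 around Hamp2 and 16 of 42 around Apol7c. Around Ifi44l and Nlrp1c-ps the adjacent genes Ifi44 and Nlrp1b differed most. Around Lipo2 it was Ifit1, an interferon-stimulated gene 909.9 kb away (-2.78 ± 0.32). This value pools NZM with iNZM, and Ifit1 was lower in iNZM than in NZM by -3.47 ± 0.65 after acute and -3.92 ± 0.65 after chronic UVB. The genes that passed around Lipo2 also included Ifit2, Ifit3b and Ifit1bl2. Around Hamp2 the gene that differed most was Arhgap33os, on the side of lower coordinates and higher in NZM and iNZM (3.72 ± 0.33).

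**Figure D3:**
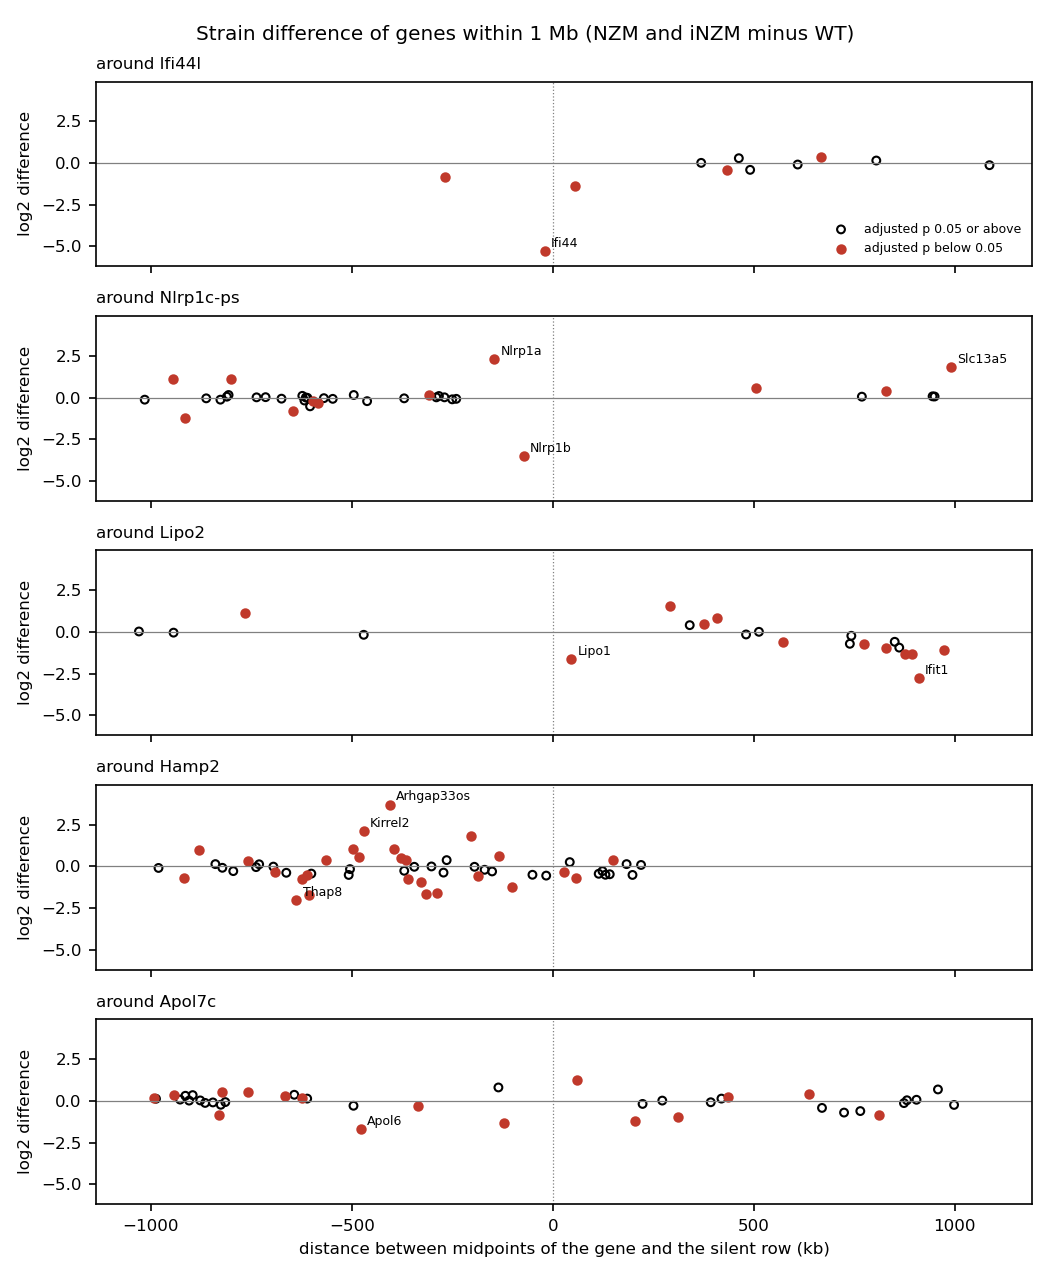
Each panel gives genes within 1 Mb of 1 silent row; the horizontal axis is the distance between midpoints in kb and the vertical axis the log2 difference of NZM and iNZM minus WT, with filled points for adjusted p below 0.05. Ifi44, Nlrp1b and Lipo1 lie near 0 kb at -5.31, -3.50 and -1.62, and the genes with the largest differences are named.

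The UVB tests used the NZM and iNZM libraries alone, since a row at 0 in WT has no spread there. All 45 rows silent in WT passed the filter. After acute UVB in NZM, 1 of the 45 was higher and 4 lower, where 10.3% and 10.5% of all 18504 genes were. After chronic UVB in NZM, 2 were higher and 2 lower (background 7.23% and 7.64%). In iNZM, 2 were higher and 5 lower after acute UVB (12.3% and 11.7%), and 2 higher and 4 lower after chronic UVB (11.1% and 13.7%). The acute and chronic tests of a strain share its unexposed libraries. The rule bears on these counts: all 31 hair-linked rows, Spink7, RP23-404A6.8, RP23-192A6.2 and RP23-398F7.12 reached a mean of 50 in exposed skin alone, and Apol7c, Hamp2, Lipo2, RP23-358K1.5 and RP23-344D2.1 in unexposed skin alone. For these rows a difference with UVB in that direction was fixed or favoured by the rule, so their values are given as a description, and nothing is read from their part in the counts. RP23-282C23.1, RP23-468A19.2, Nlrp1c-ps, RP23-251I6.1 and RP23-388P16.2 met the limit in both.

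Apol7c (chr15:77524852-77533316), one of the apolipoprotein L genes, was lower in exposed skin in all 4 comparisons, with a mean of 146 in unexposed and 19.5 in exposed libraries. In NZM it was 86.71, 100.4, 194.8, 235.8 and 249.2 without UVB. It was 0.781, 15.23, 19.15, 43.31 and 53.45 after acute UVB, and 7.999, 9.847, 16.19, 23.39 and 69.08 after chronic UVB. In iNZM it was 82.66, 103.9, 118.9 and 139.4 without UVB, 0.964, 4.042, 14.76, 26.37 and 26.89 after acute UVB, and 0, 8.709, 9.364, 15.10 and 24.42 after chronic UVB. In both strains every exposed library lay below every unexposed one. The log2 differences were -3.23 ± 0.87 and -3.03 ± 0.87 in NZM and -3.41 ± 0.92 and -3.72 ± 0.92 in iNZM (acute first). Without the 9 hair-high libraries the chronic difference in NZM was -1.95. A stretch of 219 bases of an Apol7c transcript of 367 bases (59.7%) is 98.2% identical to Gm8221. Only this closest match was kept for the gene. Gm8221 has no row in the table, so the source of these reads is uncertain. Its neighbours differed between strains in opposite directions: Apol9a by -1.34 ± 0.38 and Apol10b by 1.28 ± 0.32 for NZM with iNZM against WT, although for NZM alone Apol9a did not pass (-0.12 ± 0.43, adjusted p = 0.876).

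The window before the start of Apol7c is shown because it is the one window of a row silent in WT in which the interferon response element was found. The capitals mark a run with 2 overlapping matches, on the strand opposite to the gene, that begin 55 and 49 bases before the start. Apol7c itself did not pass the test between iNZM and NZM in any regimen (-0.53 ± 0.92, -0.71 ± 0.87 and -1.22 ± 0.87).
Apol7c (chr15:77533316-77533565, minus strand, GRCm38.p6): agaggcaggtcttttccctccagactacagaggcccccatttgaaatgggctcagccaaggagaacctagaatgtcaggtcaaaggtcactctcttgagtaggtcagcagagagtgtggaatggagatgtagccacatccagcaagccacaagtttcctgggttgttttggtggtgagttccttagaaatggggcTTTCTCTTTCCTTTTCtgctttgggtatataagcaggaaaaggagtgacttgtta

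Hamp2 was lower after acute UVB in both strains. In NZM it was 130.6, 138.5, 211.2, 216.2 and 244.4 without UVB and 6.245, 12.77, 13.68, 22.44 and 52.66 after acute UVB, with no overlap (-3.36 ± 0.60 on the log2 scale). In iNZM the mean levels were 137 ± 46.4 (n = 4) and 14.5 ± 7.72 (n = 5), again with no overlap (-3.28 ± 0.64). After chronic UVB the difference was -2.43 ± 0.60 in NZM, and -1.43 there without the 9 hair-high libraries, and -1.15 ± 0.64 in iNZM. Sample 57 of iNZM chronic UVB, at 231.6, lay above the highest unexposed iNZM library.

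Nlrp1c-ps, at 242 in unexposed and 99.2 in exposed libraries on average, fell after acute UVB, from 255 ± 56.6 to 81.8 ± 39.1 (n = 5 each) in NZM and from 225 ± 22.3 (n = 4) to 45.2 ± 17.4 (n = 5) in iNZM, with no overlap in either strain. The log2 differences were -1.81 ± 0.49 and -2.38 ± 0.52 (adjusted p = 0.00941 and 0.00173). After chronic UVB in iNZM it fell by 1.44 ± 0.52 (adjusted p = 0.0445), and in NZM it did not pass (-0.81 ± 0.49, adjusted p = 0.258). The chronic call in iNZM was lost in 13 of 36 alternatives, with adjusted p of 0.0502 to 0.358, among them any of the 4 unexposed iNZM libraries left out (0.0697 to 0.0987), iNZM chronic UVB sample 22, 24 or 25 left out (0.0561 to 0.15), NZM samples 1, 32 or 33 left out (0.0502 to 0.0508), and the 9 hair-high libraries left out (-0.32, adjusted p = 0.358). RP23-344D2.1 differed by -2.07 ± 0.54 after acute UVB in NZM, and by -2.97 ± 0.58 and -2.61 ± 0.58 after acute and chronic UVB in iNZM. It was 117.8 to 148.2 in unexposed iNZM and at most 49.95 in exposed iNZM libraries.

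RP23-251I6.1 fell after acute UVB in iNZM, from 160 ± 32.1 (n = 4) to 55.7 ± 42.2 (n = 5), by -2.06 ± 0.62 on the log2 scale (adjusted p = 0.0182). This call was lost without iNZM acute UVB sample 6 (0.0621) or unexposed sample 40 (0.0534). RP23-468A19.2 fell after chronic UVB in iNZM, from 357 ± 71.2 to 145 ± 144 (-1.70 ± 0.60, adjusted p = 0.0416), with 398.5 in sample 23 and at most 127.8 in the other 4. That call was lost in 11 alternatives, among them each unexposed iNZM library left out (0.0662 to 0.095), samples 22, 24, 25 or 57 of iNZM chronic UVB left out (0.0595 to 0.118), edgeR (0.116), and the 9 hair-high libraries left out (-0.99, adjusted p = 0.268). RP23-398F7.12 was the 1 always-read row that was higher after UVB, in iNZM, at 31.9 ± 9.13 (n = 4) without UVB, 65.4 ± 24.0 after acute and 57.9 ± 19.3 after chronic UVB (n = 5 each). The log2 differences were 0.97 ± 0.30 and 0.82 ± 0.30, and 0.71 and 0.36 without the 9 hair-high libraries. RP23-282C23.1 and RP23-388P16.2 passed no UVB test, and neither did Lipo2 and RP23-358K1.5.

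Leukocyte markers were set beside the rows that were lower after UVB, because skin biopsies hold blood-derived cells, and fewer cells of a type and less RNA per cell cannot be told apart in bulk tissue. Of 6 markers, 5 were in the table and 4 were tested. In NZM, 1 of the 4 was lower and none higher after acute and after chronic UVB, with medians of 0.79 and 0.72. In iNZM, 1 was lower after acute and 4 after chronic UVB, with medians of -2.03 and -2.71. Their summed level was 1920 to 2300 in unexposed NZM, 875 to 8840 after acute and 1700 to 9030 after chronic UVB. In iNZM it was 2410 to 9060, 305 to 9230 and 316 to 2010. Over the 29 libraries, log2 values had a Pearson r with the mean of these markers of 0.65 for Apol7c, 0.61 for RP23-468A19.2, 0.58 for RP23-251I6.1, 0.57 for RP23-344D2.1, 0.55 for Nlrp1c-ps and 0.23 for Hamp2, as a description. With the score of the hair markers the same 6 rows had an r of -0.72, -0.76, -0.52, -0.66, -0.59 and -0.43. Keratinocyte markers were lower after acute UVB for 3 of 5 in NZM and 4 of 5 in iNZM, and both adipocyte markers were lower in iNZM after acute and after chronic UVB. The part of any of these cells in the changes was not tested.

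Spink7, a Kazal-type inhibitor of serine proteases in stratified epithelium, was read in exposed NZM and iNZM skin. Since it met the limit through exposed skin alone, its values are a description. It had no read in the 9 unexposed NZM and iNZM libraries, nor in any of the 14 WT libraries but WT chronic UVB sample 58, which held 2 reads. In NZM it was 9.878, 15.50, 18.74, 33.67 and 61.31 after acute UVB and 10.02, 218.2, 290.0, 436.6 and 448.5 after chronic UVB. In iNZM it was 0.964, 6.063, 17.71, 32.77 and 37.36 after acute and 6.243, 6.967, 147.0, 254.2 and 583.1 after chronic UVB. All 20 exposed libraries of these strains held reads, and the acute and chronic ranges overlap. On the log2(value + 1) scale the differences were 4.57 ± 1.06 and 7.40 ± 1.06 in NZM and 3.67 ± 1.13 and 6.05 ± 1.13 in iNZM (acute first). With a pseudocount of 8 the acute differences were 1.99 in NZM and 1.5 in iNZM. Without UVB it was at 0 in all 3 strains. Of its neighbours, Fbxo38 was higher in NZM and iNZM by 0.31 ± 0.07 (adjusted p = 0.000714) and Apcdd1 did not pass (0.07 ± 0.24, adjusted p = 0.855).

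**Figure D4:**
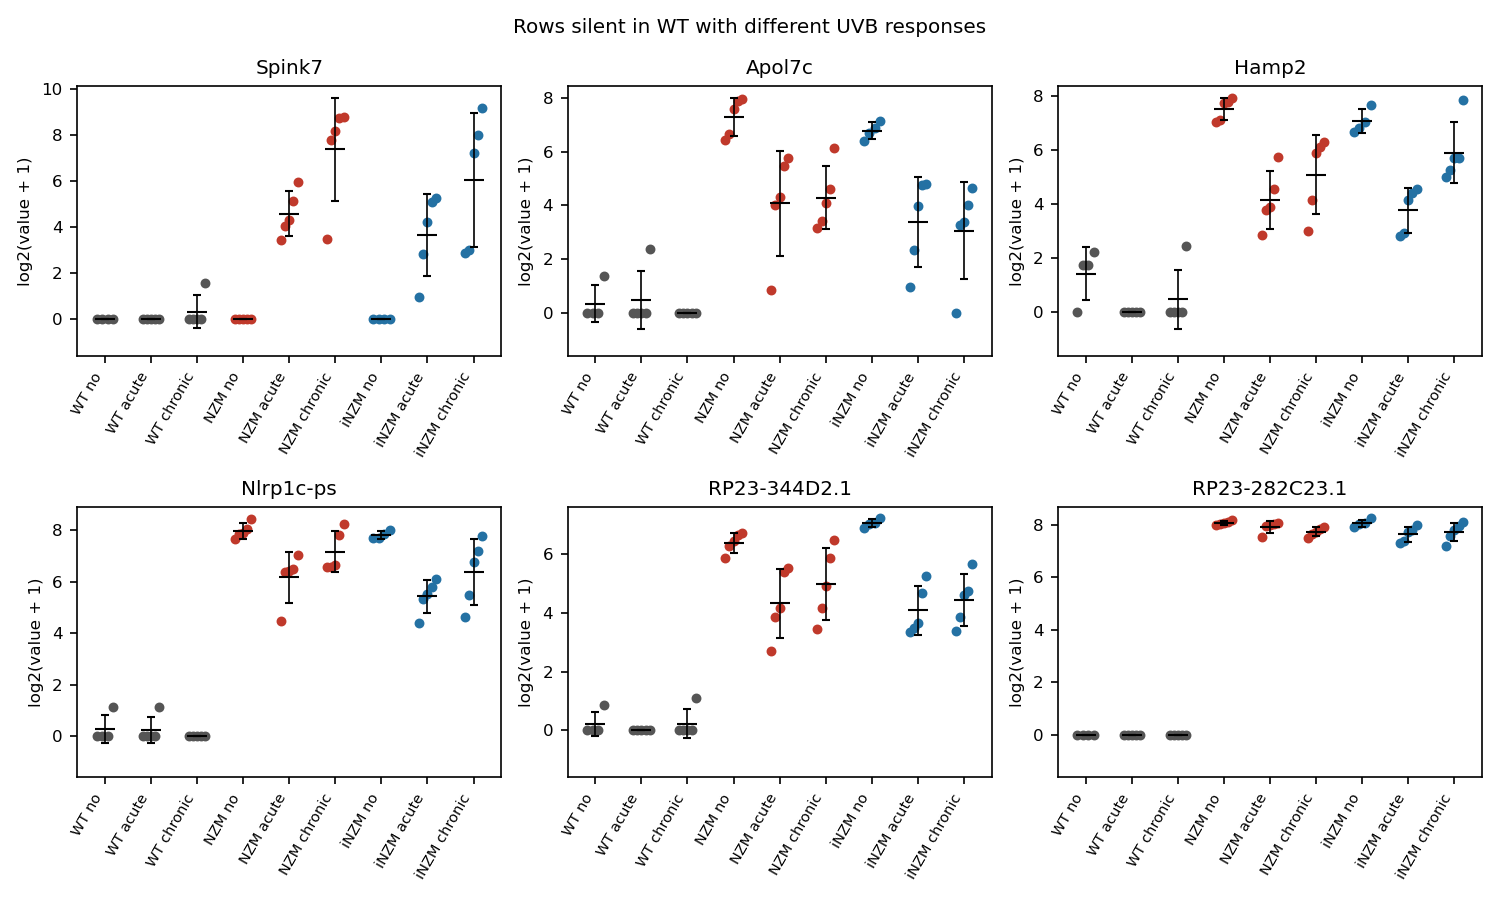
The vertical axis gives log2(normalised read count + 1) in 9 groups, from WT on the left to iNZM on the right; points are libraries and black lines the group mean and SD. Spink7 is at 0 without UVB and above 0 in all exposed NZM and iNZM libraries, Apol7c, Hamp2, Nlrp1c-ps and RP23-344D2.1 have higher means in unexposed than in exposed NZM and iNZM skin, and RP23-282C23.1 is level in both strains and at 0 in WT.

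None of the 45 rows passed in iNZM against NZM in any of the 3 regimens, either by limma or by edgeR, and none had an unadjusted p below 0.05 there by limma. Few genes passed at all in these comparisons (0.0378%, 0.141% and 0.227% of 18504 in either direction). The largest differences among always-read rows were 0.95 and -0.96, with errors of 0.16 to 0.64 over the rows. The difference in UVB response between iNZM and NZM also passed for no row by either tool; 1 always-read row had an unadjusted p below 0.05 for acute UVB, and 1 of 18504 genes (0.0054%) passed for acute and 0 for chronic UVB. For the hair-linked rows the errors of the iNZM minus NZM differences were 1.57 to 3.16, so even large differences could not be detected.

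The 31 hair-linked rows were 14 keratin and keratin-associated genes, Gm2431, Gm4559 and 15 clone-named models. Keratin-associated proteins form the matrix that holds keratin filaments together in the hair shaft. The highest row was RP23-212C14.10, at 756 to 8426 in the 9 hair-high libraries, at most 23.8 in the other 20 NZM and iNZM libraries, and at 0 in WT. Krtap31-1 was at 244 to 4404 in the 9 and at most 1.48 in the other 20. Krtap31-2 was at 248.6 to 3933 and at most 1.94, and Krtap9-5 at 161 to 4243 and at most 4.46. These 4 rows had no read in WT. Krtap19-1 was at 44.1 to 4943 in the 9, Krtap19-2 at 38.3 to 3020 and Krtap19-4 at 10.5 to 2469; each had its WT reads in 1 library, at 6.41, 8.24 and 12.8. Krtap5-2 was at 281 to 2475 and Krtap12-1 at 108 to 2220, with WT maxima of 2.91 and 7.06. In each of these genes all of the 9 libraries stand above all other libraries of any strain, except that Krtap19-4 in its highest WT library was above its lowest hair-high library. Krt74, the row with the lowest mean, was at 65.6 to 290.8 and at most 20.8. The clone-named models other than RP23-212C14.10 were RP24-466C12.10, RP23-250K15.6, RP23-250K15.7, RP23-250K15.8, RP23-250K15.12, RP23-345N8.10, RP23-345N8.11, RP23-345N8.12, RP23-250K1.8, RP23-145I16.2, RP23-346N11.6, RP23-132J20.11, RP23-132J20.12 and RP23-56A14.6. Their means over the 29 libraries ran from 72.6 for RP23-345N8.12 to 230.3 for RP24-466C12.10. Over the 29 libraries the Pearson r of the 31 rows with the score of the 7 hair markers was 0.91 to 0.98, which the grouping by that score largely fixed.

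The WT libraries reached hair marker scores of 10.44 at most, in unexposed sample 44, and that library held 115 of the 158 reads (72.8%) that fell on hair-linked rows in all WT libraries. It had reads of 23 of the 31 rows. Among libraries of NZM and iNZM with a similar score, NZM chronic UVB sample 18, at a score of 9.75, held 80 reads of 16 rows, and iNZM chronic UVB sample 57, at 9.78, held 52 reads of 8 rows. WT acute UVB samples 15 and 50, at 10.32 and 9.82, held 9 reads each, of 3 and 7 rows. No WT library reached the scores at which these rows were high, so the strains were not compared at equal hair marker levels above 12. All 31 rows were chosen for a mean below 1 in WT, so low WT read numbers were fixed by the rule. The read numbers above are therefore a description and do not compare the strains. For the 5 hair-linked rows without a WT read (RP23-212C14.10, Krtap31-1, Krtap31-2, Krtap9-5 and RP23-132J20.12), the summed value was 10.0 in NZM sample 18 and 25.2 in iNZM sample 57. Their value of 0 in WT samples 44, 15 and 50 follows from how these 5 rows were picked. The part of strain in their silence was not tested.

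**Figure D5:**
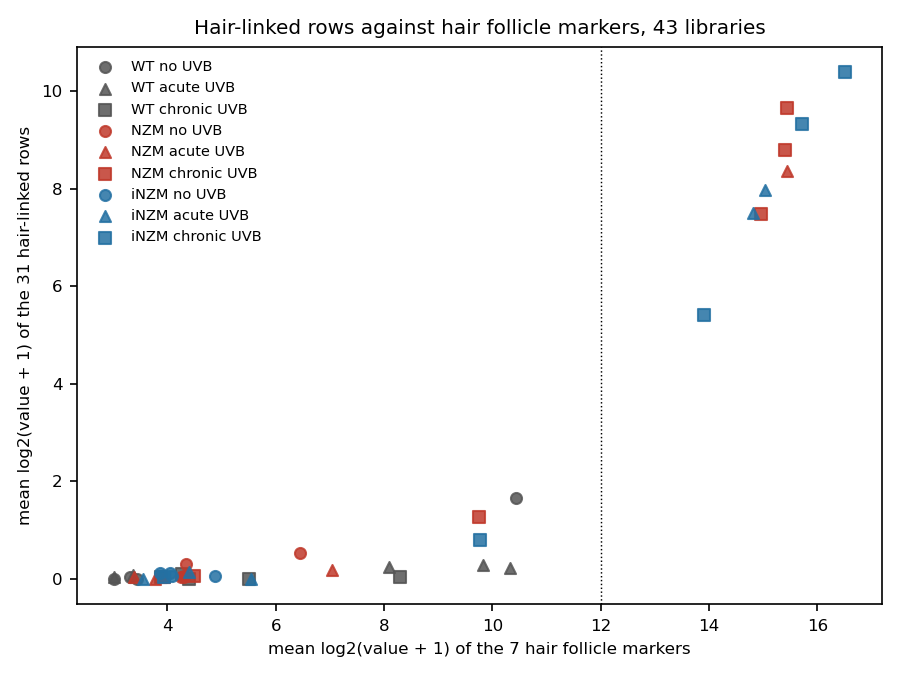
The horizontal axis is the mean log2(value + 1) of 7 hair follicle markers and the vertical axis that of the 31 hair-linked rows; each point is 1 of 43 libraries, with colour for strain and shape for UVB regimen, and the dotted line at 12 sets apart the 9 hair-high libraries. Below the line the strains overlap on both axes, and no WT library lies above it.

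All 9 hair-high libraries were exposed, so higher values of these rows in exposed skin follow from the way they were chosen and grouped. The log2 differences after chronic UVB had medians of 5.13 in NZM and 5.04 in iNZM, with errors of 1.57 to 3.16 for single rows. By limma 1 of the 31, RP23-132J20.11, was called in NZM and 0 in iNZM (29 and 26 had an unadjusted p below 0.05), counts from which nothing is read. Of the 7 hair markers, 1 and 4 passed. Other fits made many more calls on the 45 rows: with all 43 libraries in the fit 23 were higher in NZM and 21 in iNZM, and by edgeR 9 and 19. Leaving out one library moved the number of called rows from 2 to 25 in NZM (highest without chronic UVB sample 54) and from 3 to 32 in iNZM (highest without chronic UVB sample 23), both of which had low hair marker scores of 4.49 and 3.94. After acute UVB none of the 31 passed in either strain, and none had an unadjusted p below 0.05. Without the 9 libraries, 13 of the 45 rows still passed the filter, and 11 of the 45 still met the limits of the rule: the always-read rows other than RP23-398F7.12, with Apol7c and Spink7.

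On the chromosomes, 14 of the 16 placed hair-linked rows lay in 3 clusters, where rows within 1 Mb of each other were joined. Krtap31-1, Krtap31-2, Krtap9-5 and Krtap29-1 lay within 71.1 kb of chromosome 11 (99907920 to 99979053) with no other placed row of the table between them. Only 16725 of the 23256 rows had a position, so rows without one may lie there. Krtap27-1, Krtap19-1, Krtap19-2, Krtap19-4 and Krtap6-3 lay within 413.5 kb of chromosome 16 (88671026 to 89084534). Krtap5-2, Krtap5-3, Gm2431, Gm4559 and Krtap5-1 lay within 122.6 kb of chromosome 7 (142174535 to 142297118). Krtap12-1 (chromosome 10) and Krt74 (chromosome 15) stood alone. Some of the genes beside them behaved alike without meeting the limit in WT. Krtap9-1 had a mean of 1540 ± 4010 in NZM and iNZM and 10.5 ± 28.7 in WT, and Krtap5-5 had 330 ± 716 and 1.59 ± 3.74 (SD, n = 29 and 14). Krt71, an inner root sheath keratin 11.2 kb from Krt74, had 31400 ± 57100 and 769 ± 1420. Others did not: Dusp8 beside Krtap5-2 and Krtap5-3 had 584 and 554, and Tspear beside Krtap12-1 had 41.2 and 17.9. Gm7735 beside Krtap6-3 was at 0 in WT and had a mean of 8.97 in NZM and iNZM. None of the 16 neighbours of hair-linked rows passed between the strains by limma, with adjusted p of 0.0575, 0.0905 and 0.105 for Krtap5-5, Krtap9-1 and Krt71.

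For models without a position, clone names were used, since models numbered on one clone were annotated on that clone. The 28 clone-named rows came from 22 clones. RP23-250K15 held 4 of them, RP23-345N8 held 3 and RP23-132J20 held 2. On the 9 clones of hair-linked rows, 28 other rows had a mean of 50 or more in NZM and iNZM, and their WT means were 1.10 to 14.2. All 28 were higher in each of the 9 hair-high libraries than in any of the other 20. The limit of 50 favours rows that are high in the 9, and rows below it were left out. The share of all rows with this split was not counted, so nothing is read from it. On the clones of always-read rows, 3 other rows had a mean of 50 or more in NZM and iNZM, and they were read in both strains: RP23-282C23.7 at 104 ± 31.1 in NZM and iNZM and 213 ± 86.0 in WT, RP23-344D2.9 at 422 ± 70.5 and 463 ± 54.3, and RP23-358K1.3 at 399 ± 69.8 and 330 ± 75.4.

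The sequence TATAAA, the core of the TATA box, was on the gene strand in the 250 bases before the start of 8 of 13 hair-linked rows with a promoter in RefSeq (61.5%), against 7.59% of all 32851 promoters. In Krtap31-1 and Krtap31-2, neighbours with close values in the 9 hair-high libraries (1686 and 1678 in NZM acute UVB sample 5, 4404 and 3739 in iNZM chronic UVB sample 25), it begins 30 bases before the start, and it is in capitals in the windows below. The windows are 86.9% identical over 260 aligned positions, and the transcripts 88.5% over 978. Reads may be split between the genes, which was not tested.
Krtap31-1 (chr11:99907670-99907919, plus strand, GRCm38.p6): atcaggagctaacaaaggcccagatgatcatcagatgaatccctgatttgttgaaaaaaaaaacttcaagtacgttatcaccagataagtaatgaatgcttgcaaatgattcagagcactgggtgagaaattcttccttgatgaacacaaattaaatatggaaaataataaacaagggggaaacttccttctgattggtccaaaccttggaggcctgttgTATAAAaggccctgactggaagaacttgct
Krtap31-2 (chr11:99936041-99936290, plus strand, GRCm38.p6): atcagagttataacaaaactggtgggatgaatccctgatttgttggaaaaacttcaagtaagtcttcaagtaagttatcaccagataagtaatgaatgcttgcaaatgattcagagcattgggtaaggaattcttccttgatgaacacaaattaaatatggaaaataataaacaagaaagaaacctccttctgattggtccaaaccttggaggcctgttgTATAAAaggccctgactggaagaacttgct

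The limits of the rule cut through continuous values. Just inside the limit of 1 in WT were RP23-404A6.8 (0.963), Krtap19-4 (0.916) and Hamp2 (0.913), and just outside were RP23-56A14.9 (1.10), RP23-149C6.7 (1.21) and Capn8 (1.21). Just inside the limit of 50 in NZM and iNZM were RP23-192A6.2 (51.2), RP23-344D2.1 (51.5) and RP23-358K1.5 (51.8), and just outside were RP23-250K15.9 (47.5), RP23-273B19.1 (45.2) and Crisp1 (39.7). In the other direction the rows nearest outside were RP24-562O19.4 (1.23), Calm5 (1.30) and Zfp429 (1.63) on the silent side, and RP24-218K1.3 (42.9), RP23-478P10.3 (41.2) and RP23-278M8.1 (37.0) on the expressed side. The rows nearest inside were RP23-393P20.1 (0.437) and RP23-86F8.3 (0.228) with Ifi44l (0.199), and RP23-258F9.4 (69.9), RP23-205C7.1 (73.0) and RP23-86F8.3 (77.2). RP23-404A6.8 and RP23-192A6.2, left among the remaining 4, were close to the hair-linked rows, with an r of 0.90 and 0.89 with the hair markers; 1 or more of the 9 hair-high libraries overlapped the other 20 in each.

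Applied to unexposed libraries alone (4 WT and 9 NZM and iNZM), the rule took 14 rows silent in WT, of which 9 were among the 45: the always-read rows except Hamp2 and RP23-398F7.12, with Apol7c. Hamp2 missed the silent limit in unexposed WT skin. The rule took 9 silent in NZM and iNZM, of which 4 were among the 5. The added ones were the hair genes Krt33b, Krt34 and Krtap3-1, along with Calm5 and RP24-218K1.3. Of the 4 unexposed WT libraries, sample 44 had a hair marker score of 10.44 and the others 3.01 to 3.44. The WT means of these hair genes may therefore rest on 1 library.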

How the data were processed

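Poly-A RNA was sequenced with paired reads of 151 bases. Per the submitters' processing notes, STAR, HTSeq and DESeq2 were used on build mm10; versions, annotation and strand setting are not given in the sources used here. The deposited signal is a read count per gene that the authors divided by 1 size factor per library (0.6735 to 1.7503). Multiplying back gave whole reads, within 0.01, for 100% of values. The members, gene lists, tests and kinds of row were chosen with earlier results of these data known.

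The main test was limma-trend 3.58.1 (R 4.3.3) on log2(value + 1), two-sided, with 1 mean per group, Benjamini-Hochberg adjustment over all genes and a threshold of 0.05. UVB and iNZM contrasts were fitted on the 29 NZM and iNZM libraries and WT contrasts on the 14 WT libraries, because a silent row has no spread in the other strain. The filter kept genes that reached 10 in 4 or more fitted libraries. Strain differences of neighbours were fitted on all 43 libraries. The pseudocount of 1 understates changes of low genes. Floors use 3 reads over a group. Alternatives were a pseudocount of 8, no filter, all libraries, a term for samples numbered from 46 up, TMM scaling, edgeR 4.0.16 on recovered reads, and leaving out each library. The text names every row, and gives values for Ifi44l, the 10 rows of each direction with the highest mean, every called row, the 3 rows on each side of each limit, rows in clusters with their neighbours, and up to 4 called interferon-list genes per contrast. The split into kinds of row and the fit without 9 libraries high in hair markers were set once their values were known. Scripts were tested on simulated data. Positions and transcripts came from GENCODE vM21, promoters from RefSeq (GRCm38.p6; 17 of 50 rows matched). Tables and plots used Python 3.11.15, pandas 2.3.3 and matplotlib 3.10.9.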

Additional observations from a re-analysis of the deposited data

Results flagged for a closer look

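Values of 18 rows and of the mean of the hair-linked rows were checked for a library far from the rest of its group. With normally distributed values, chance alone finds one in about 1 of 20 groups. The 18 rows were checked on normalised counts and not on the log2 scale, so that rate need not hold for them. Such a library was found in 9 of 100 groups (9%), and nothing is read from this share. Of these 9, 2 are the hair signal: the mean log2(value + 1) of the hair-linked rows was 8.36 in NZM acute UVB sample 5 and 1.65 in WT no UVB sample 44. RP23-282C23.1 was low, at 184, in NZM acute UVB sample 5. RP23-468A19.2 was high in NZM acute UVB sample 1, at 581, and in iNZM chronic UVB sample 23, at 398. Hamp2 was high in iNZM chronic UVB sample 57, at 232. Lipo2 was high in NZM no UVB sample 33, at 93.6. Apol7c was high in NZM chronic UVB sample 54, at 69.1. Ifi44 was high in NZM acute UVB sample 47, at 264.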

How the results depend on the processing

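The numbers of the 45 rows called after chronic UVB depended on the fit; the cause was not tested. In NZM, 4 rows were called, against 26 with all 43 libraries in the fit, 11 by edgeR and 1 without the 9 hair-high libraries, a setting chosen after seeing the data. In iNZM, 6 rows were called, against 26, 21 and 3. Leaving out 1 library gave 2 to 25 in NZM: 25 without NZM chronic UVB sample 54, 17 without 18, 2 without 17 or 56, 9 without NZM acute UVB sample 5, and 7 without iNZM acute UVB sample 6 or iNZM chronic UVB sample 23 or 57. In iNZM it gave 3 to 32: 32 without iNZM chronic UVB sample 23, 17 without 57, 3 without 22, 24 or 25 or without unexposed sample 37, 38 or 40, and 10 without NZM acute UVB sample 5. After acute UVB the ranges were 5 to 6 in NZM and 5 to 9 in iNZM. Leaving out 1 library kept 0 calls in the iNZM against NZM comparisons, the differences in response and WT after acute UVB, and 1 call in WT after chronic UVB.

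With other limits, the rule took 67 rows silent in WT and 9 silent in NZM and iNZM at a silent limit of 2, and 8 and 0 when no read was allowed. It took 24 and 1 at an expressed limit of 100, and 59 and 8 at 25. It took 11 and 5 without the 9 hair-high libraries, 14 and 9 in unexposed libraries alone, and 38 and 7 without iNZM. TMM scaling kept the 45 and 5 rows, and leaving out 1 library gave 38 to 65 rows silent in WT (65 without WT no UVB sample 44) and 5 in the other direction. The neighbours called between strains were 9 of 28, and 9 to 11 in the alternatives (9 of 20 without the 9 hair-high libraries).

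Of 26 calls on named genes, 15 held in every alternative run. Most of these 15 are on rows that met the limit of 50 through exposed or unexposed skin alone. Their direction was fixed or favoured by the rule. Of the 919 alternative values of the 26 calls, 828 passed, 91 did not and 0 changed direction. Nothing is read from these pooled counts. Among calls not favoured by the rule, Nlrp1c-ps after acute UVB held in every alternative, in NZM and in iNZM. So did Ifi44 in iNZM against NZM, after acute and after chronic UVB. The remaining calls not favoured by the rule were each lost in some alternatives. No paired analysis was possible because the groups share no sample numbers. Rows with few reads are limited by depth: 1 read is a value near 1, and 3 reads over a group set the floor, for counting error only.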
